A study of Mus musculus with 9 samples.

Results

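The genes described here carry the integrated stress response and the serine and mitochondrial folate synthesis that it feeds. They were chosen by symbol: 34 genes, which are the eIF2 kinases Eif2ak1, Eif2ak3 and Eif2ak4, the eIF2 phosphatase subunits Ppp1r15a and Ppp1r15b, the factors Atf3, Atf4, Atf5, Ddit3, Trib3, Cebpb, Cebpg, Nupr1 and Jdp2, the effectors Chac1, Ddit4, Sesn2, Eif4ebp1 and Vldlr, the secreted factors Fgf21, Gdf15 and Stc2, the serine enzymes Phgdh, Psat1 and Psph, the folate enzymes Shmt2, Mthfd2, Mthfd1l and Aldh1l2, and the amino acid enzymes Asns, Aldh18a1, Pycr1, Cth and Gpt2. The deposited table holds 54532 genes, of which 13326 passed a filter on low counts and were tested, 33 of the 34 among them. Stc2, which encodes the secreted glycoprotein stanniocalcin 2, had 0 counts in all 9 libraries, where 3 counts correspond to 0.113 to 0.229 CPM (counts of a gene scaled to the size of its library), and was not tested. A second, short entry named Ddit3 also had 0 counts, and the values below are those of the main Ddit3 entry. The lowest count of any tested gene of the 34 was 251 in a library, for Pycr1, so none passed the filter through 1 group alone.

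The cells were RENCA, a mouse renal carcinoma line labelled as a kidney tumor cancer cell, grown in RPMI medium with serum, glutamine, sodium pyruvate and MEM amino acids. The empty-vector group is labelled WT. In the knockout group, labelled NDUFA4L2 -/-, the mitochondrial protein gene Ndufa4l2 was targeted with 1 guide in the Cas9 plasmid PX458, and clones were raised from single cells and screened by qPCR. In the rescue group, labelled NDUFA4L2 +/+, the gene was put back into knockout cells with a lentivirus carrying puromycin resistance, followed by puromycin selection. Each group had 3 libraries. The labels do not say how many clones the libraries hold, nor whether replicates were separate cultures, so the p-values rest on a spread between libraries that may be technical only. Effects of clone choice, lentivirus and puromycin cannot be told apart from those of the gene.

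In the integrated stress response, kinases that sense heme loss or mitochondrial stress (HRI, from Eif2ak1), unfolded protein in the endoplasmic reticulum (PERK, from Eif2ak3) or uncharged tRNA (GCN2, from Eif2ak4) phosphorylate the translation factor eIF2. General protein synthesis then falls while the mRNA of the transcription factor ATF4 is translated more, and ATF4 with its partners raises genes for amino acid synthesis, amino acid import and tRNA charging. GADD34, from Ppp1r15a, closes the loop by bringing a phosphatase to eIF2. In cells with impaired mitochondria, ATF4 is known to raise the enzymes that make serine and use it for folate-bound one-carbon units.

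ATF4 binds with C/EBP partners to a composite element with the letters TGATGNAA, here called CARE. It was searched on both strands in the 250 bases before the RefSeq start of each gene, of build GRCm38.p6. An entry existed for 30 of the 34 genes, and 8 of those (26.7%) held the letters, against 1056 of 27025 genes (3.91%) in the whole promoter table. The genes were chosen as ATF4 pathway genes, so this share is a description. The stretches are shown because the element is the known binding site of ATF4, and because the genes that hold them moved in different directions in the knockout. Each is written 5′ to 3′ along the gene's strand, with the element in capitals; TTGCATCA is TGATGCAA read from the other strand.
Atf3 (chr1:191183426-191183453, minus strand): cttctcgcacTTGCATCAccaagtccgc
Chac1 (chr2:119351039-119351066, plus strand): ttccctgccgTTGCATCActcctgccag
Asns (chr6:7693215-7693242, minus strand): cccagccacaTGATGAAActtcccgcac
Fgf21 (chr7:45615612-45615639, minus strand): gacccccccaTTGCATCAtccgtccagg
Nupr1 (chr7:126625563-126625590, minus strand): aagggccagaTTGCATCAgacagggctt
Pycr1 (chr11:120643834-120643861, minus strand): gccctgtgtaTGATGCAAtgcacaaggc
Jdp2 (chr12:85599373-85599400, plus strand): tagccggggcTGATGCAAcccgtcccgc
Vldlr (chr19:27216810-27216837, plus strand): gcagcaatagTTGCATCAgcgctcctag
The stretches of Asns, Nupr1 and Vldlr lie within an annotated exon of a longer transcript of the same gene. Those of Atf3 and Jdp2 lie outside the gene's exons but within its span (chr1:191170296-191218039 and chr12:85599027-85639878). The RefSeq start used for them is thus inside that span.

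Ppp1r15a, the gene with the largest change of the 34, held the full cAMP response element TGACGTCA, a palindrome and so the same on both strands, 12 bases before its start. It was the only 1 of the 30 genes to hold it, and 1.77% of all promoters did. Ddit3 and Eif2ak3 held the AP-1 letters TGANTCA, in which any base was allowed at N. That base was C in Ddit3 and T in Eif2ak3. These letters were searched on both strands, and 7.82% of all promoters held them. No matches of the motifs overlapped each other in these genes. The stretches are printed in the same way, with the motif in capitals.
Ppp1r15a (chr7:45526269-45526290, minus strand): gcctctccggTGACGTCAgcac
Ddit3 (chr10:127290543-127290567, plus strand): cgcgcgcaTGACTCActcacctcct
Eif2ak3 (chr6:70844320-70844346, plus strand): ggaactgaaaTGATTCAccaatcgcct
A match says that the letters are there, not that a factor was bound.

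Libraries held 13106531 to 26643877 counts, and all replicate pairs differed by more than sampling noise. Counts of Ndufa4l2 itself were 12, 6 and 16 with empty vector and 7, 8 and 6 in the knockout, a log2 difference of -0.36 ± 0.42 (SE, adjusted p = 0.47), so at these counts the targeted gene does not check the knockout label. The rescue libraries had 73, 48 and 35 counts. Mitochondrially encoded genes took 2.79% ± 0.55 of counts in empty vector, 7.01% ± 1.10 in the knockout and 2.47% ± 0.21 in rescue (SD, n = 3). Of 9 renal tubule epithelium markers 7 were tested, while the general epithelial genes Krt19 and Epcam were at or near 0. Summed, these markers ran from 991.8 to 1216 CPM in empty vector, 1608 to 1736 CPM in the knockout and 1326 to 1377 CPM in rescue. The summed leukocyte markers ran from 74.8 to 80.8 CPM, 206.6 to 223.8 CPM and 36.4 to 41.9 CPM, mostly from Cd68. Of the myeloid genes among them, Lyz2 was at 0.949, 7.49 and 1.15 CPM and Csf1r at 1.08, 3.87 and 1.39 CPM on average in the same order of groups. Itgam, Cd3e and Adgre1 were at 0, and Ptprc and Tyrobp at or near 0. Fibroblast markers, mostly Pdgfrb, ran from 25.1 to 31.3 CPM, 54.8 to 65.5 CPM and 25.2 to 25.9 CPM. Endothelial markers did not pass 1.08 CPM in any library. The part of these differences in the results below was not tested.

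The response did not move as 1 block in the knockout. Of the 33 genes tested, 12 rose, 13 fell and 8 were not called against empty vector (edgeR's quasi-likelihood test, Benjamini-Hochberg adjusted p under 0.05 over all genes tested). Among all genes tested, 29.5% rose and 31.1% fell, so the shares of the 33 (36.4% and 39.4%) stood a little above a background in which most genes were called. Their median log2 fold change was -0.06, beside -0.02 for all genes. Changes of at least 2-fold were found upward in Atf5 and Vldlr and downward in Ppp1r15a, Atf3, Ddit3 and Pycr1, where 8.13% of all genes rose and 3.92% fell by that much. Scaled by library totals alone, which moved the median of all genes by -0.15, 8 of the 33 rose and 17 fell. That scaling also moved the share of rises among all called genes from 48.7% to 34.4%.

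In rescue against knockout 15 of the 33 rose, 7 fell and 11 were not called, with a median log2 fold change of 0.18 beside 0.03 for all genes. Among all genes 29.5% rose and 27.3% fell. None of the 33 changed by at least 2-fold in that comparison, in which 2.07% of all genes rose and 8.4% fell by that much. With library totals alone, 22 rose and 5 fell, and the share of rises among all called genes went from 51.9% to 69.6%. In rescue against empty vector 14 rose, 9 fell and 10 were not called, against backgrounds of 22.4% and 25.1%. At least 2-fold changes there were rises of Atf5 and Chac1 and falls of Ppp1r15a and Atf3, with 2.12% and 3.29% of all genes so changed. The comparisons share libraries, so a gene's values in them are not independent of each other.

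**Figure D1:**
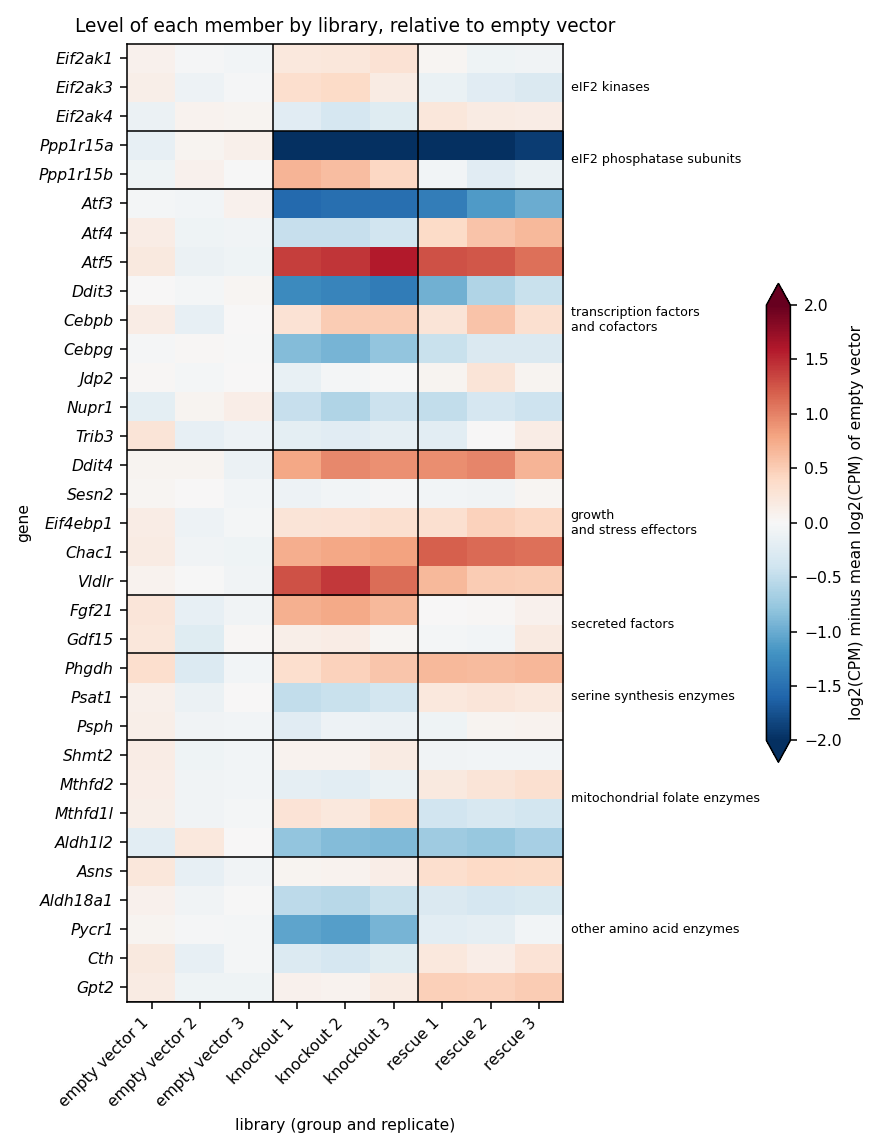
Level of each of the 33 tested genes (rows, ordered by role) in each of the 9 libraries (columns), as log2 CPM minus the mean log2 CPM of the empty-vector libraries; the darkest colors also stand for values beyond the ends of the scale. Ppp1r15a, Atf3 and Ddit3 are low in the knockout and rescue libraries, Atf5, Chac1 and Ddit4 are high in both, and Vldlr, Fgf21 and Ppp1r15b are highest in the knockout.

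The eIF2 kinases changed little, and not in the same direction. Eif2ak1, for HRI, was at 50.5, 47.1 and 45.7 CPM in empty vector, 55.1, 56.1 and 58.4 CPM in the knockout and 49.2, 44.9 and 45.5 CPM in rescue. Eif2ak3, for PERK, was at 55.2, 47.5 and 49.7 CPM, then 63.8, 66.2 and 56.6 CPM, then 46.0, 43.1 and 41.5 CPM in the same order. For both, the knockout libraries were above all others without overlap. Eif2ak1 shares 1548 bases with Aimp2 on the other strand, so reads there may be split uncertainly. Aimp2 had 647 to 1532 counts where Eif2ak1 had 679 to 1387. The log2 rises in the knockout were 0.24 ± 0.07 (SE, adjusted p = 0.0034) for Eif2ak1 and 0.28 ± 0.08 (adjusted p = 0.0028) for Eif2ak3. With library totals alone neither rise was called, at 0.09 (adjusted p = 0.27) and 0.13 (adjusted p = 0.12). In rescue against knockout Eif2ak1 fell by 0.28 ± 0.07 on the log2 scale (adjusted p = 0.0012) and Eif2ak3 by 0.51 ± 0.08 (adjusted p = 1.1e-05), the first of which was also lost with library totals (-0.10, adjusted p = 0.24).

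Eif2ak4, for GCN2, went the other way. It was at 32.7, 37.2 and 36.7 CPM in empty vector, 30.3, 28.1 and 30.0 CPM in the knockout and 41.5, 39.9 and 39.3 CPM in rescue. The knockout libraries were the lowest and the rescue libraries the highest, with no overlap. Its log2 change was -0.27 ± 0.07 (adjusted p = 0.0036) in the knockout and 0.45 ± 0.07 (adjusted p = 2.6e-05) from knockout to rescue. The small difference between rescue and empty vector was 0.18 ± 0.07 (adjusted p = 0.039) for Eif2ak4 and -0.22 ± 0.08 (adjusted p = 0.021) for Eif2ak3. The Eif2ak3 call was lost without empty-vector replicate 1 (-0.13), rescue replicate 2 or rescue replicate 3. The Eif2ak4 call was lost without any 1 of empty-vector replicates 1 and 3 and the 3 rescue replicates. Adjusted p-values in these fits were up to 0.13 for both. Both calls were also lost with DESeq2 (adjusted p = 0.051 for Eif2ak3 and 0.066 for Eif2ak4). That of Eif2ak4 was lost as well without the filter on low counts (adjusted p = 0.12) and with a replicate block (adjusted p = 0.058). Per length, these kinases stood at the low end of the 33 genes, with Eif2ak4 the lowest in empty vector at 4.71 ± 0.28 FPKM (fragments per kilobase, a level scaled to gene length and library size; SD, n = 3).

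The phosphatase subunits parted in opposite directions. Ppp1r15a (ENSMUSG00000040435, chr7:45522916-45526268 on mm10) encodes the stress-induced GADD34. It was at 477, 553 and 573 CPM in empty vector, 60.3, 56.8 and 55.2 CPM in the knockout and 81.0, 106 and 142 CPM in rescue. No group overlapped another, the rescue libraries lay much nearer to the knockout, and they were the most spread of any of the 33 genes in rescue. The fall in the knockout was 9.32-fold, a log2 change of -3.22 ± 0.21 (SE, adjusted p = 4.5e-06). Rescue was 1.90-fold above the knockout (log2 0.93 ± 0.20, adjusted p = 0.005) and 4.89-fold below empty vector (log2 -2.29 ± 0.19, adjusted p = 4.9e-05).

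Ppp1r15b (chr1:133131143-133139783) encodes CReP, the subunit made without stress that does the same work. It was at 123, 138 and 129.9 CPM in empty vector, 208, 199 and 174 CPM in the knockout and 125, 111 and 119 CPM in rescue. Its knockout libraries were the highest, and the rescue libraries overlapped empty vector. It rose by a log2 of 0.57 ± 0.07 in the knockout (adjusted p = 1.3e-06) and fell by 0.71 ± 0.07 from there to rescue (adjusted p = 9.8e-08). Rescue and empty vector differed by -0.14 ± 0.07 (adjusted p = 0.13). Per length, Ppp1r15a mRNA stood at 7.80 ± 0.53 times that of Ppp1r15b in empty vector, 0.566 ± 0.033 times in the knockout and 1.77 ± 0.52 times in rescue (ratio of FPKM in each library; SD, n = 3). Ppp1r15a was seventh of the 33 genes by FPKM in empty vector, 26th in the knockout and 23rd in rescue.

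**Figure D2:**
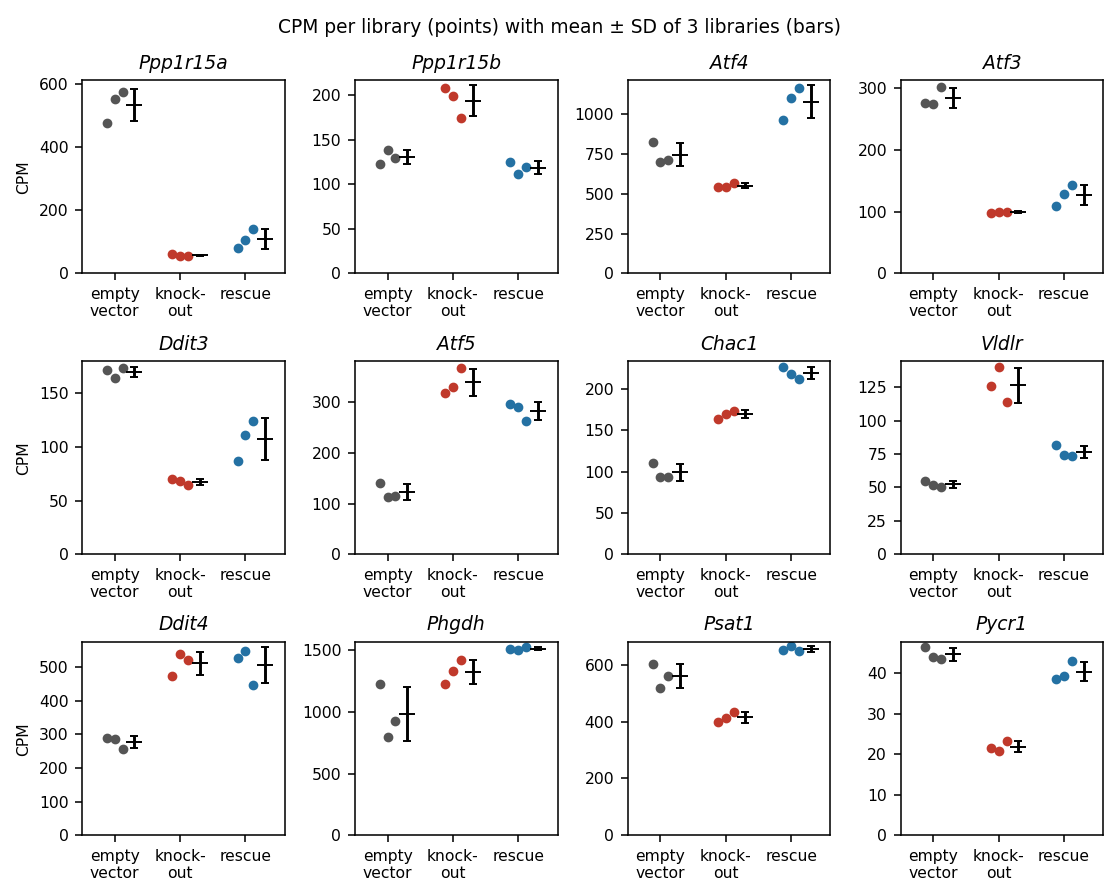
CPM of 12 of the genes, 1 panel per gene and 1 point per library, with bars for the mean and SD of each group of 3. The groups of Ppp1r15a stand apart with empty vector highest, Atf4 is lowest in the knockout and highest in rescue, and Atf5 is lowest in empty vector.

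Atf4 mRNA itself was lower in the knockout and highest in rescue. Atf4 (ENSMUSG00000042406, chr15:80255184-80257541) was at 828, 698 and 710.0 CPM in empty vector, 540.0, 543 and 569 CPM in the knockout and 965, 1101 and 1167 CPM in rescue. The order knockout, empty vector, rescue held with no overlap. The log2 changes were -0.44 ± 0.08 in the knockout (adjusted p = 0.00012), 0.97 ± 0.08 from knockout to rescue (adjusted p = 6.4e-09) and 0.53 ± 0.08 for rescue against empty vector (adjusted p = 2.6e-05). ATF4 protein is set largely by translation, which these libraries do not measure.

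Atf3 and Ddit3, which encode the stress-induced repressor ATF3 and the death-linked factor CHOP, fell and stayed low. Atf3 (ENSMUSG00000026628, chr1:191170296-191218039) was at 276, 274 and 302 CPM in empty vector, 97.1, 100.1 and 99.5 CPM in the knockout and 109, 129 and 143 CPM in rescue. Ddit3 (ENSMUSG00000025408, chr10:127290774-127296288) was at 171, 164 and 173 CPM, then 69.8, 67.9 and 64.3 CPM, then 86.7, 111 and 124 CPM. In both genes the rescue libraries lay between the other groups without overlap. Atf3 fell 2.87-fold in the knockout (log2 -1.52 ± 0.08, adjusted p = 9.3e-12) and Ddit3 fell 2.52-fold (log2 -1.33 ± 0.10, adjusted p = 5.2e-08). Rescue raised Atf3 by a log2 of 0.36 ± 0.08 (adjusted p = 0.00072) and Ddit3 by 0.67 ± 0.10 (adjusted p = 6.1e-05), and left them below empty vector by -1.16 ± 0.08 (adjusted p = 1.2e-09) and -0.66 ± 0.10 (adjusted p = 8.2e-05). Ddit3 overlaps the expressed gene Mars on the other strand by 68 bases, and whether reads were assigned by strand is not stated in the labels or headers.

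Atf5, a factor that like ATF4 is translated under stress and is tied to mitochondrial protein quality, moved against them. Atf5 (ENSMUSG00000038539, chr7:44812256-44816658) was at 141, 114 and 116 CPM in empty vector, 319, 331 and 368 CPM in the knockout and 296, 290.3 and 263 CPM in rescue. Empty vector was lowest and the knockout highest, with no overlap. It rose 2.75-fold in the knockout (log2 1.46 ± 0.08, adjusted p = 8.5e-11) and remained 2.29-fold above empty vector in rescue (log2 1.20 ± 0.08, adjusted p = 4e-09). Its fall from knockout to rescue, -0.26 ± 0.08 (adjusted p = 0.011), was not called without knockout replicate 3 (-0.20, adjusted p = 0.075), without rescue replicate 3 (-0.20, adjusted p = 0.074) or with library totals (-0.08, adjusted p = 0.39). Atf5 shares 571 bases with Nup62 on the other strand, which had 828 to 3148 counts, so reads there may be split uncertainly. Within libraries, Atf5 stood at 0.196 ± 0.0055 times Atf4 per length in empty vector, 0.728 ± 0.034 times in the knockout and 0.314 ± 0.048 times in rescue. Ddit3 stood at 0.315 ± 0.027, 0.169 ± 0.012 and 0.136 ± 0.012 times Atf4 (ratios of FPKM; SD, n = 3).

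Of the other factors, the ATF4 partners C/EBP-gamma and C/EBP-beta moved apart. Cebpg was at 109, 112 and 109.6 CPM in empty vector, 60.7, 58.2 and 63.5 CPM in the knockout and 80.8, 90.6 and 90.5 CPM in rescue, with no overlap. Its log2 change was -0.86 ± 0.06 in the knockout (adjusted p = 9.3e-10) and 0.52 ± 0.06 from there to rescue (adjusted p = 9.7e-07). Cebpb rose by 0.43 ± 0.09 in the knockout (adjusted p = 0.00083) and was 0.38 ± 0.09 above empty vector in rescue (adjusted p = 0.003); it overlaps Tmem189 on the other strand by 908 bases. Nupr1, a small stress-induced chromatin protein, fell by 0.50 ± 0.08 (adjusted p = 2.8e-05) and was still -0.42 ± 0.08 from empty vector in rescue (adjusted p = 0.00023). Between knockout and rescue it was at 0.07 ± 0.08 (adjusted p = 0.47), and at 0.26 (adjusted p = 0.016) with library totals. The pseudokinase gene Trib3, a feedback inhibitor of ATF4 and CHOP, was not called in any comparison, with log2 changes of -0.22 ± 0.11, 0.19 ± 0.11 and -0.02 ± 0.11. It passed the test in the knockout without empty-vector replicate 2 (-0.30, adjusted p = 0.019) and in rescue against knockout without rescue replicate 1 (0.29, adjusted p = 0.028). It also passed in these comparisons with library totals (-0.37, adjusted p = 0.0033; 0.38, adjusted p = 0.0027) and without a filter (-0.27, adjusted p = 0.00075; 0.23, adjusted p = 0.0037), and in the latter with only the groups compared (0.16, adjusted p = 0.044). The AP-1 family repressor gene Jdp2 was at -0.06 ± 0.07 in the knockout (adjusted p = 0.42), or -0.22 with library totals (adjusted p = 0.0076), and rose by 0.18 ± 0.07 in rescue (adjusted p = 0.023), a call lost without knockout replicate 1 (adjusted p = 0.11) or rescue replicate 2 (0.12, adjusted p = 0.16). With DESeq2 that call was lost too (adjusted p = 0.057). Without empty-vector replicate 1 Jdp2 also passed in rescue against empty vector (0.16, adjusted p = 0.047). Of the 9 factors, 2 rose and 5 fell in the knockout, and 5 rose and 1 fell in rescue against it. With library totals these were 2 and 7, then 7 and 0. Among all genes, 29.5% rose and 31.1% fell in the knockout, and 29.5% and 27.3% in rescue against it.

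Of the 5 growth and stress effectors, 4 rose in the knockout and none fell, where 29.5% of all genes rose and 31.1% fell. With library totals 3 rose and 1 fell. Vldlr (ENSMUSG00000024924, chr19:27216484-27254231), a lipoprotein receptor raised by PERK and ATF4, was at 55.0, 52.0 and 50.0 CPM in empty vector, 126, 139.8 and 114 CPM in the knockout and 81.7, 74.0 and 73.5 CPM in rescue. Rescue lay between the other groups with no overlap. It rose 2.41-fold in the knockout (log2 1.27 ± 0.08, adjusted p = 4.2e-11), fell by 0.72 ± 0.07 on the log2 scale to rescue (adjusted p = 8.5e-08) and was there 0.55 ± 0.08 above empty vector (adjusted p = 7.3e-06).

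Chac1 (ENSMUSG00000027313, chr2:119351229-119354381), which encodes a glutathione-degrading enzyme, rose in steps. It was at 111, 93.9 and 93.1 CPM in empty vector, 164, 170.2 and 174 CPM in the knockout and 227, 218 and 213 CPM in rescue, with no overlap. The log2 changes were 0.77 ± 0.07 in the knockout (adjusted p = 1.4e-08), 0.37 ± 0.07 from there to rescue (adjusted p = 0.00011) and 1.14 ± 0.07 for rescue against empty vector (adjusted p = 2.9e-10). Ddit4, for the mTORC1 inhibitor REDD1, rose by 0.88 ± 0.08 in the knockout (adjusted p = 1.6e-08) and differed by -0.01 ± 0.08 between knockout and rescue (adjusted p = 0.89). Eif4ebp1, for the translation repressor 4E-BP1, rose by 0.28 ± 0.07 (adjusted p = 0.0017), which was not called with library totals (0.13, adjusted p = 0.075). Between knockout and rescue it was at 0.11 ± 0.07 (adjusted p = 0.19), and at 0.29 (adjusted p = 0.00028) with library totals. Sesn2, for the leucine sensor sestrin 2, stayed within -0.06 to 0.03 in the comparisons and was not called in any. With library totals it passed the test in the knockout (-0.21, adjusted p = 0.0044) and in rescue against it (0.21, adjusted p = 0.0045).

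The secreted factors did not share a pattern. Fgf21, for a hormone released under mitochondrial stress, was at 296, 226 and 239 CPM in empty vector, 410.1, 424 and 397 CPM in the knockout and 253, 256 and 267 CPM in rescue. The knockout libraries were the highest, and rescue lay within the range of empty vector. It rose by a log2 of 0.69 ± 0.08 in the knockout (adjusted p = 6e-07) and fell by 0.66 ± 0.08 to rescue (adjusted p = 1.2e-06). Rescue and empty vector differed by 0.03 ± 0.08 (adjusted p = 0.8), and by 0.18 without empty-vector replicate 1, which then passed the test (adjusted p = 0.011). Gdf15, for a hormone also tied to mitochondrial stress, had the highest level per length of the 33 genes in all 3 groups, at 849 ± 146 FPKM in empty vector, 914 ± 36.1 FPKM in the knockout and 863 ± 83.2 FPKM in rescue (SD, n = 3). Its log2 changes were 0.09 ± 0.10, -0.07 ± 0.10 and 0.02 ± 0.10 and none was called. Without empty-vector replicate 1 its change in the knockout was 0.22 (adjusted p = 0.016).

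**Figure D3:**
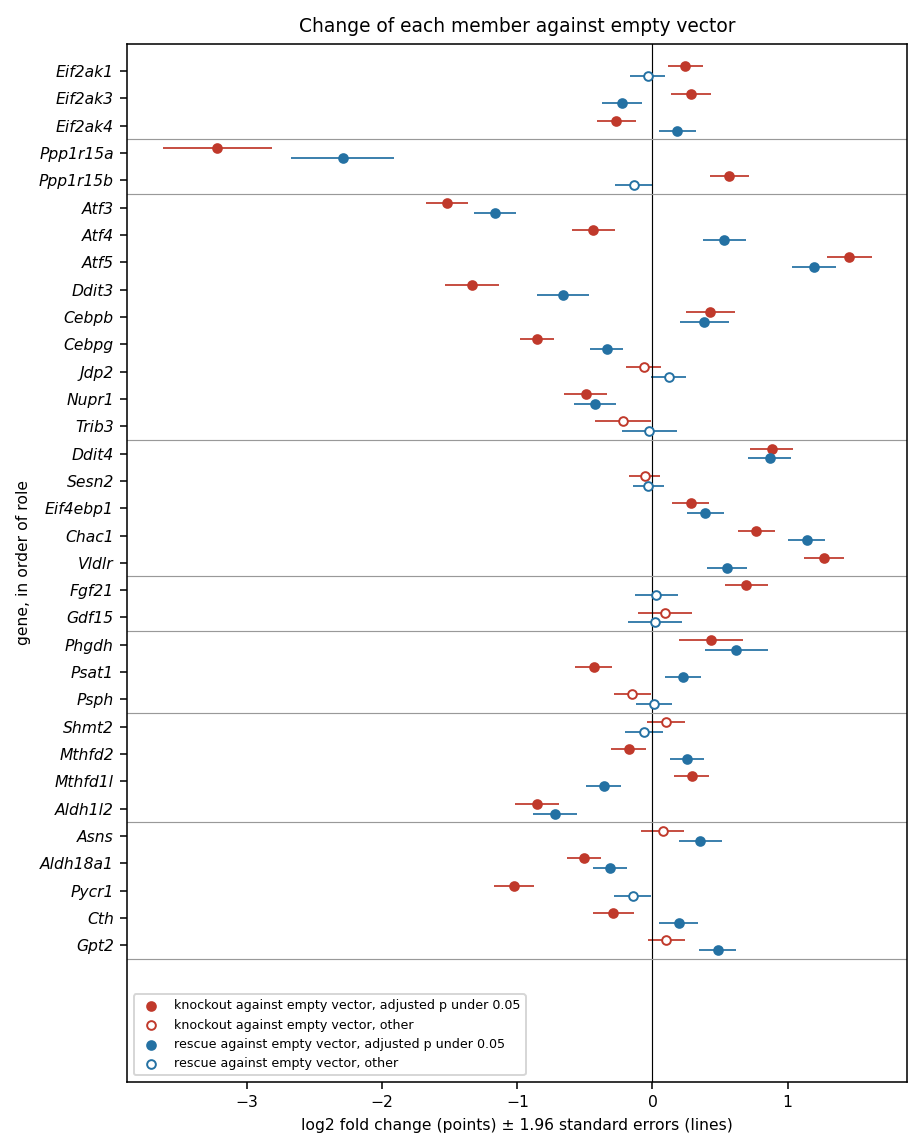
Log2 fold change of each of the 33 genes against empty vector, in the knockout (red) and in rescue (blue), ordered by role, with filled points for an adjusted p under 0.05 and lines for the multiple of the standard error named on the axis. Ppp1r15a lies farthest from 0, at -3.22 in the knockout and -2.29 in rescue, and Atf4 and Psat1 are left of 0 in the knockout and right of it in rescue.

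The first enzymes of serine synthesis moved in opposite directions in the knockout. Phgdh, for the dehydrogenase that draws 3-phosphoglycerate into the pathway, was at 1222, 798 and 927 CPM in empty vector, 1227, 1328 and 1422 CPM in the knockout and 1510.0, 1501 and 1526 CPM in rescue. The first empty-vector library lay close to the lowest knockout library, and rescue stood above both groups. It rose by 0.43 ± 0.12 on the log2 scale in the knockout (adjusted p = 0.0064, and 0.28 with library totals) and was 0.62 ± 0.12 above empty vector in rescue (adjusted p = 0.00071). Between knockout and rescue it was at 0.19 ± 0.12 (adjusted p = 0.19), which passed the test with library totals (0.37, adjusted p = 0.013), without a filter (0.23, adjusted p = 0.0075) and with only the groups compared (0.16, adjusted p = 0.018). Psat1, for the aminotransferase of the next step, was at 603, 519 and 562 CPM, then 398, 413 and 434 CPM, then 652, 666 and 649 CPM. There the knockout was lowest and rescue highest, with no overlap. Its log2 changes were -0.44 ± 0.07 in the knockout (adjusted p = 1.7e-05) and 0.66 ± 0.07 from there to rescue (adjusted p = 1.1e-07), and 0.22 ± 0.07 for rescue against empty vector (adjusted p = 0.011, and 0.059 without empty-vector replicate 2).

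Psph, for the phosphatase that releases serine, was not called in the knockout (-0.15 ± 0.07, adjusted p = 0.07) or in rescue (0.16 ± 0.07, adjusted p = 0.054). Its change in the knockout passed the test without empty-vector replicate 2 (-0.19, adjusted p = 0.029), and its change in rescue against knockout passed without rescue replicate 1 (0.21, adjusted p = 0.022). Both passed with library totals (-0.30, adjusted p = 0.00028; 0.34, adjusted p = 6.5e-05) and without a filter (-0.20, adjusted p = 0.017; 0.20, adjusted p = 0.015), and the latter with only the groups compared (0.13, adjusted p = 0.049). Psph shares 452 bases with Cct6a on the other strand, so reads there may be split uncertainly. Within libraries the ratio of Phgdh to Psat1 per length was 2.97 ± 0.44 in empty vector, 5.46 ± 0.17 in the knockout and 3.95 ± 0.086 in rescue (ratio of FPKM; SD, n = 3). The groups did not overlap: the ratio ran from 2.63 to 3.47, 5.28 to 5.61 and 3.86 to 4.02. Scaling of libraries does not touch such a ratio.

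**Figure D4:**
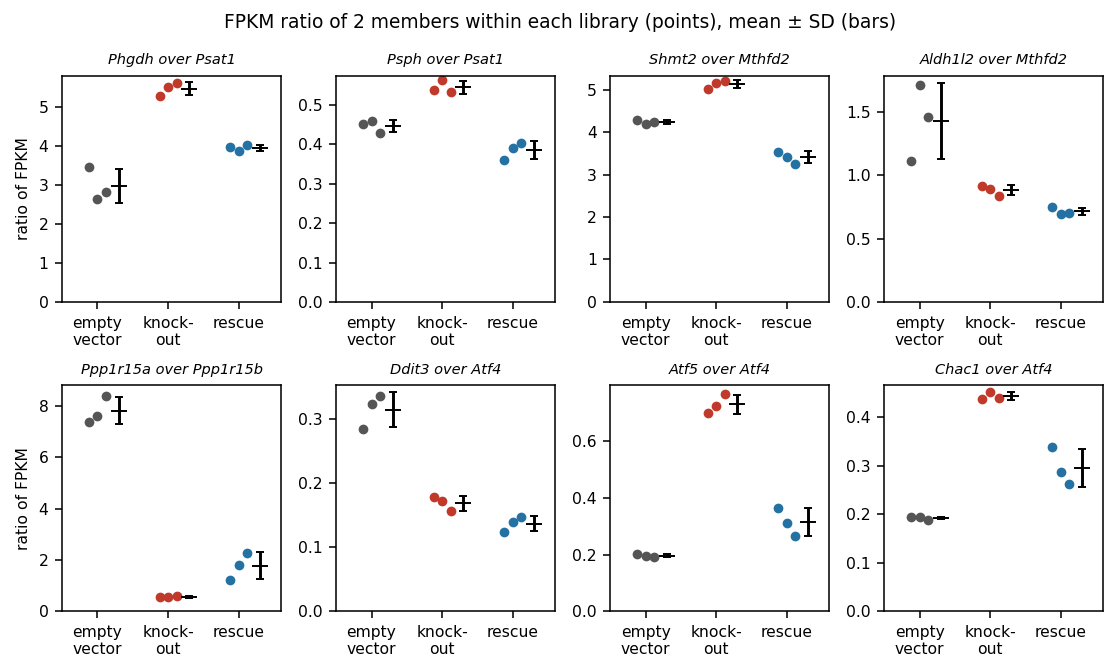
Ratios of FPKM between pairs of the genes, 1 panel per pair and 1 point per library, with bars for the mean and SD of each group of 3. Ppp1r15a over Ppp1r15b is lower in the knockout (0.543 to 0.604) than in empty vector (7.39 to 8.40), and Phgdh over Psat1 and Atf5 over Atf4 are highest in the knockout.

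The mitochondrial folate enzymes also split. Aldh1l2, for the enzyme that oxidises formyl-folate in mitochondria with NADP, was at 501, 672 and 584 CPM in empty vector, 336, 318 and 317 CPM in the knockout and 354, 345 and 365 CPM in rescue. Empty vector stood apart above both other groups. It fell by 0.86 ± 0.08 on the log2 scale in the knockout (adjusted p = 4.2e-08) and remained -0.72 ± 0.08 from empty vector in rescue (adjusted p = 9.9e-07). Between knockout and rescue it was at 0.13 ± 0.08 (adjusted p = 0.18), with the rescue libraries above those of the knockout without overlap. This passed the test with library totals (0.32, adjusted p = 0.0094) and without a filter (0.175, adjusted p = 0.043). Aldh1l2 shares 1056 bases with D10Wsu102e on the other strand, which had 948 to 2740 counts beside 3850 to 14553.

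Mthfd2, for the dehydrogenase and cyclohydrolase of the same pathway, had a small fall in the knockout of -0.18 ± 0.07 (adjusted p = 0.026). It was not called without empty-vector replicate 1 (-0.10, adjusted p = 0.15), knockout replicate 1 (adjusted p = 0.061) or knockout replicate 2 (adjusted p = 0.088). Nor was it called with DESeq2 (adjusted p = 0.062) or with RLE factors (-0.15, adjusted p = 0.066). From knockout to rescue Mthfd2 rose by 0.43 ± 0.07 (adjusted p = 1.4e-05). Mthfd1l, for the synthetase that releases formate, moved the other way: it rose by 0.29 ± 0.07 in the knockout (adjusted p = 0.00084), not called with library totals (0.14, adjusted p = 0.057), and fell by 0.65 ± 0.07 to rescue (adjusted p = 9.3e-08). Shmt2, for the hydroxymethyltransferase that passes serine's carbon to folate, was not called, at 0.10 ± 0.07 in the knockout (adjusted p = 0.25) and -0.16 ± 0.07 in rescue against it (adjusted p = 0.066). Without empty-vector replicate 1 the knockout value was 0.19 (adjusted p = 0.0065). The value in rescue passed the test with RLE factors (-0.18, adjusted p = 0.045), with DESeq2 (-0.17, adjusted p = 0.042) and with only the groups compared (-0.19, adjusted p = 0.0025), and was 0.025 with library totals. Shmt2 ends 32 bases inside Ndufa4l2 on the other strand, but it had 9237 to 19469 counts where Ndufa4l2 had 6 to 73. The ratio of Shmt2 to Mthfd2 per length was 4.24 ± 0.054 in empty vector, 5.13 ± 0.093 in the knockout and 3.40 ± 0.14 in rescue (ratio of FPKM; SD, n = 3).

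The 5 other amino acid enzymes all rose from knockout to rescue, where 29.5% of all genes rose. Of these enzymes, 3 had fallen in the knockout, where 31.1% of all genes fell. Pycr1 (ENSMUSG00000025140, chr11:120635712-120643769), for the last enzyme of proline synthesis, was at 46.4, 44.1 and 43.5 CPM in empty vector, 21.5, 20.7 and 23.3 CPM in the knockout and 38.7, 39.4 and 43.1 CPM in rescue. The knockout was lowest, and rescue came close to empty vector from below. It fell 2.03-fold in the knockout (log2 -1.02 ± 0.07, adjusted p = 7.1e-10) and rose 1.84-fold to rescue (log2 0.88 ± 0.07, adjusted p = 6.9e-09), where it differed from empty vector by -0.15 ± 0.07 (adjusted p = 0.09). Aldh18a1, for the first proline enzyme, fell by 0.50 ± 0.06 (adjusted p = 1.2e-06) and rose by 0.19 ± 0.06 to rescue (adjusted p = 0.016, and 0.07 without knockout replicate 2).

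Cth, for the enzyme that makes cysteine from cystathionine, was at -0.29 ± 0.08 in the knockout (adjusted p = 0.0028), and at -0.17 without empty-vector replicate 1. It rose by 0.48 ± 0.08 to rescue (adjusted p = 2.1e-05). Asns, for asparagine synthetase, and Gpt2, for mitochondrial alanine aminotransferase, were not called in the knockout, at 0.08 ± 0.08 (adjusted p = 0.42) and 0.10 ± 0.07 (adjusted p = 0.21). Without empty-vector replicate 1 both passed the test, at 0.21 (adjusted p = 0.0021) and 0.20 (adjusted p = 0.0025). In rescue they rose above the knockout by 0.28 ± 0.08 (adjusted p = 0.0065) and 0.38 ± 0.07 (adjusted p = 0.00011). They were also above empty vector, by 0.36 ± 0.08 (adjusted p = 0.0013) and 0.48 ± 0.07 (adjusted p = 1.3e-05). The difference for Cth between rescue and empty vector was 0.19 ± 0.08 (adjusted p = 0.04). It ranged from 0.12 (without empty-vector replicate 2, adjusted p = 0.21) to 0.32 (without empty-vector replicate 1). Its call was also lost without empty-vector replicate 3 or rescue replicates 1 or 3, and with DESeq2 (adjusted p = 0.067).

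The first empty-vector library bears on many of these genes. It was the highest of the 3 empty-vector libraries for 25 of the 33 genes (75.8%), while it was the highest for 38.8% of all genes tested. The second was the lowest for 20 of the 33 (60.6%, against 36.3% of all genes). In the knockout, replicate 3 was the highest for 21 of the 33 (63.6%, against 37.9%). The median coefficient of variation of the 33 genes was 7.86% in empty vector, 4.19% in the knockout and 5.3% in rescue. For all genes tested it was 8.42%, 6.82% and 6.15%. Those include genes with much lower counts and were not matched to the 33 by level. Phgdh varied most in empty vector, at 22.1%, and Ppp1r15a in rescue, at 28.1%. Leaving out empty-vector replicate 1 raised the number of the 33 called higher in the knockout from 12 to 16.

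By level per length, the 33 genes kept Gdf15 and Phgdh on top in every group. Phgdh was at 391 ± 90.8 FPKM in empty vector, and below it came Atf4 at 313 ± 33.3, Fgf21 at 264 ± 41.9 and Shmt2 at 232 ± 23.4 FPKM (SD, n = 3). Ranges over the empty-vector libraries overlapped between Phgdh (315 to 492 FPKM) and Atf4 (290.1 to 351), and between Atf4 and Fgf21 (233 to 311). Within each empty-vector library, however, the order Phgdh, Atf4, Fgf21, Shmt2 held. These differences between genes were not tested. In the knockout Atf4 came down to 233 ± 6.14 FPKM, below Fgf21 at 432 ± 15.4 FPKM, and no library of one reached the other.

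The genes with CARE letters did not move together in the knockout. Of those 8, Chac1, Fgf21 and Vldlr rose, Atf3, Nupr1 and Pycr1 fell, and Asns and Jdp2 were not called, with a median log2 fold change of 0.01. In rescue against knockout 5 rose, 2 fell and 1 was not called. In rescue against empty vector 3 rose, 2 fell and 3 were not called. Calls in both directions were also common among all genes tested. Of those, 29.5% rose and 31.1% fell in the knockout, 29.5% and 27.3% in rescue against it, and 22.4% and 25.1% in rescue against empty vector. Whether the 8 genes differ from these shares was not tested.

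Wider lists around the response share none of the 34 genes, and their counts stand beside 29.5% of all genes that rose and 31.1% that fell in the knockout, and 29.5% and 27.3% in rescue against it. Of 11 tested amino acid transporter genes linked to ATF4, 10 rose in the knockout and none fell, and 11 fell from knockout to rescue (median log2 changes 0.67 and -0.96). Slc38a1, a glutamine carrier, stood at 38.8 ± 1.19 CPM in empty vector, 121 ± 12.3 in the knockout and 31.4 ± 2.71 in rescue (SD, n = 3). It rose by 1.64 ± 0.08 on the log2 scale in the knockout (adjusted p = 2e-12). Slc1a5, which carries glutamine and other neutral amino acids, rose by 1.58 ± 0.09 (adjusted p = 6.5e-11) and fell by 1.54 ± 0.09 to rescue (adjusted p = 8.2e-11). The serine and alanine carrier Slc1a4 rose by 0.79 ± 0.08 (adjusted p = 4.8e-08) and the arginine exchanger Slc7a6 by 0.88 ± 0.08 (adjusted p = 1.6e-08). With library totals alone the counts were 10 higher and 1 lower in the knockout and 11 lower in rescue. The amino acid enzymes of the 34 held 0 rises and 3 falls among 5 in the knockout; the difference between these lists was not tested.

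Genes for the machinery that the kinases act on moved in both directions in the knockout. Of 16 tested genes for eIF2 and eIF2B subunits and other regulators of eIF2, 4 rose and 7 fell, and in rescue against knockout 8 rose and 6 fell (medians -0.15 and 0.19). With library totals these were 3 and 10, then 9 and 5 (medians -0.30 and 0.37). Eif2s1, for the alpha subunit that the kinases phosphorylate, fell by 0.92 ± 0.06 (adjusted p = 4.3e-10) and rose by 0.64 ± 0.06 to rescue (adjusted p = 6.9e-08). Eif2s2, for the beta subunit, fell by 1.01 ± 0.06 (adjusted p = 1.2e-10). Eif2b3, for a subunit of the exchange factor, fell by 0.97 ± 0.07 (adjusted p = 1.4e-09). Dnajc3, for the PERK and PKR inhibitor p58IPK, rose by 0.64 ± 0.07 (adjusted p = 8.7e-08). Of 13 tested genes for tRNA charging linked to ATF4, which are synthetases and the tRNA exporter gene Xpot, 2 rose and 5 fell in the knockout and 6 rose and 1 fell in rescue. Among them Nars changed by -0.68 ± 0.07 (adjusted p = 4.5e-08), Sars by 0.74 ± 0.08 (adjusted p = 2.1e-07), Wars by -0.63 ± 0.07 (adjusted p = 2.3e-07) and Tars by -0.49 ± 0.06 (adjusted p = 1.9e-06) in the knockout. With library totals 1 of the 13 rose and 8 fell in the knockout, and 12 rose and 0 fell in rescue.

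More folate genes outside the 34 fell than rose in the knockout: of 19 tested, 2 rose and 10 fell, and 9 rose and 3 fell in rescue against it (medians -0.41 and 0.16). With library totals these were 1 and 14, then 14 and 3. The folate- and cobalamin-dependent methionine synthase gene Mtr fell by 0.81 ± 0.07 (adjusted p = 1.2e-08), its reductase gene Mtrr by 0.81 ± 0.08 (adjusted p = 7.8e-08) and the mitochondrial folate carrier gene Slc25a32 by 0.73 ± 0.07 (adjusted p = 7.2e-08). Amt, of the glycine cleavage system, rose by 0.38 ± 0.09 (adjusted p = 0.0012). Of 15 other amino acid synthesis and transsulfuration genes, 5 rose and 8 fell in the knockout and 5 rose and 6 fell in rescue. With library totals, 3 rose and 9 fell in the knockout and 9 rose and 4 fell in rescue, and the rescue median went from 0.09 to 0.28. Aldh4a1, of proline breakdown, rose by 1.68 ± 0.13 (adjusted p = 1.1e-09), and Gpt, for cytosolic alanine aminotransferase, by 0.57 ± 0.06 (adjusted p = 9.7e-08). Oat, for ornithine aminotransferase, rose by 0.94 ± 0.08 from knockout to rescue (adjusted p = 1.4e-08), while Prodh, for proline dehydrogenase, fell by 0.81 ± 0.07 there (adjusted p = 1.7e-08).

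The unfolded protein responses of the 2 organelles were tallied apart. For the endoplasmic reticulum, 11 of 19 tested genes rose and 5 fell in the knockout, and 16 fell and 0 rose in rescue against it (medians 0.28 and -0.46). With library totals these were 8 and 7, then 12 and 2. Dnajb11, an ER co-chaperone gene, rose by 1.26 ± 0.07 (adjusted p = 1.2e-11), whereas the sensor genes Atf6 and Ern1 fell by 0.92 ± 0.07 (adjusted p = 1.3e-09) and 0.79 ± 0.08 (adjusted p = 3.5e-08). Syvn1, for an ER ubiquitin ligase, was at 0.18 ± 0.07 in the knockout (adjusted p = 0.021) and fell by 0.79 ± 0.07 to rescue (adjusted p = 5.6e-09). For mitochondria, 0 of 11 tested genes rose and 8 fell in the knockout, with 4 higher and 2 lower in rescue against it (medians -0.37 and 0.13). With library totals 0 rose and 10 fell in the knockout, and 6 rose and 1 fell in rescue (medians -0.52 and 0.31). The chaperone gene Hspa9 fell by 1.14 ± 0.08 (adjusted p = 2.9e-10), the protease genes Yme1l1 and Clpp by 1.02 ± 0.06 (adjusted p = 1.2e-10) and 0.50 ± 0.06 (adjusted p = 8.9e-07), and the chaperonin gene Hspe1 by 0.37 ± 0.07 (adjusted p = 0.00011). The share of counts from mitochondrially encoded genes was highest in these same knockout libraries, and its part in these values was not tested.

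Partners and further targets of ATF4 were mixed. Of 15 tested leucine zipper partners of ATF4, ATF3 and CHOP, 7 rose and 3 fell in the knockout, which became 4 and 6 with library totals. In rescue against knockout 4 rose and 8 fell, or 4 and 4 with library totals. Cebpa rose by 1.23 ± 0.07 (adjusted p = 1.8e-11), Jund by 0.69 ± 0.07 (adjusted p = 9e-08) and Junb by 0.61 ± 0.09 (adjusted p = 6.4e-06), and Mafk fell by 0.65 ± 0.07 (adjusted p = 3e-07). Of 13 other ATF4 and CHOP targets, 5 rose and 4 fell in the knockout, or 4 and 6 with library totals, and 3 rose and 6 fell in rescue, or 5 and 5. Klhl24 rose by 2.03 ± 0.08 (adjusted p = 1.5e-13) and the autophagy gene Gabarapl1 by 1.36 ± 0.07 (adjusted p = 2.9e-12). Sqstm1, for the autophagy receptor p62, was at 0.11 ± 0.07 in the knockout (adjusted p = 0.21) and fell by 0.69 ± 0.07 to rescue (adjusted p = 2e-07). Bcl2l11, for the death protein BIM and a known CHOP target, was rare, at 0.204 ± 0.116 CPM in empty vector, 4.53 ± 0.79 CPM in the knockout and 0.298 ± 0.099 CPM in rescue (SD, n = 3). It passed the filter on low counts only through the knockout, where it is high, so it had to differ, and its test is not given. It is still counted among the 5 that rose in the knockout and the 6 that fell in rescue. Both counts thus include a call that the filter fixed in advance.

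**Figure D5:**
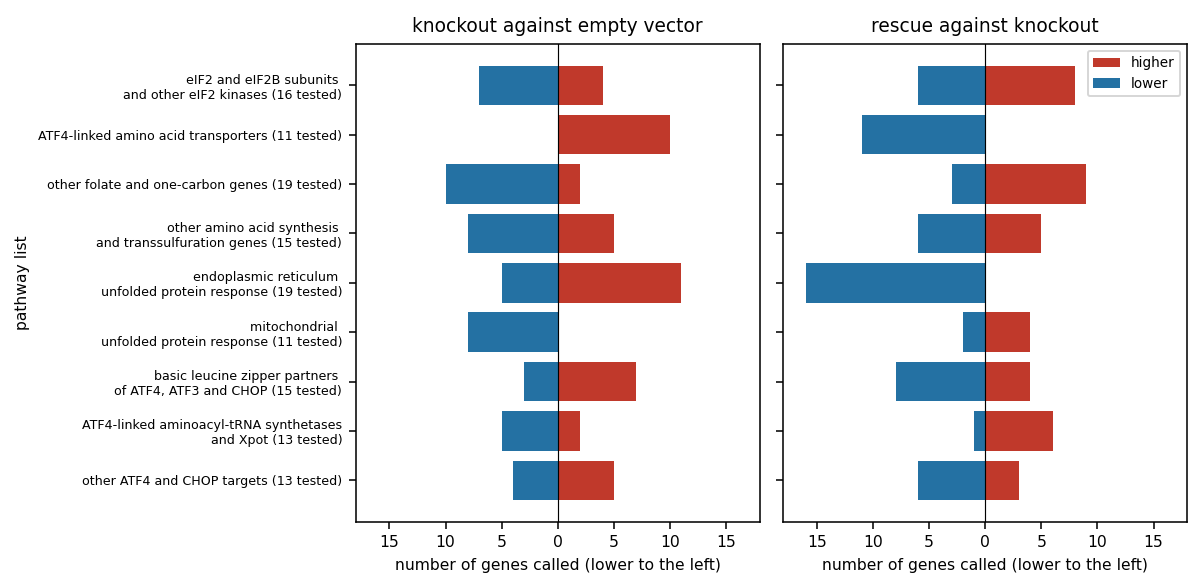
Number of tested genes of each wider list called higher (red, to the right) and lower (blue, to the left), with the knockout set against empty vector in the left panel and rescue set against the knockout in the right panel. The transporters have 10 of 11 genes higher in the knockout and 11 of 11 lower in rescue, and the mitochondrial unfolded protein response has 0 of 11 higher and 8 lower in the knockout. Bcl2l11, which passed the filter on low counts only through the knockout, is counted with the other ATF4 and CHOP targets in both panels.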

How the data were processed

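Poly(A) RNA libraries were described per the labels' protocols, which name the molecule as genomic DNA; the design text counts fewer knockout replicates than the 3 labelled and tabulated here, which were all kept. Named per the submitters' processing notes, without roles or versions, are CASAVA, HISAT2, HISAT, TopHat2 and the build mm10. The read counter and strand setting are not given in the sources used here. The deposited counts are whole, unnormalized numbers of reads per gene. The authors' FPKM of each library, so named per the file headers, imply a library size 0.906 to 1.08 times the count total; they were used for levels between genes and for ratios, untested. The authors' group means (a normalized signal per the file headers), log2 fold changes and p-values stand in the same deposited table and were not used.

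Counts were filtered with filterByExpr, scaled by TMM and fitted with edgeR 4.0.16 (robust quasi-likelihood, limma 3.58.1, R 4.3.3) on 3 groups of 3 libraries; p-values were Benjamini-Hochberg adjusted over the 13326 genes tested and called under 0.05. CPM values use TMM-scaled library sizes. Standard errors are the log2 fold change over the square root of F. Library pairs within groups had chi-square values of 3.43 to 18.4 for each degree of freedom. The fit was also run on simulated counts in which far fewer genes changed than were called here, equally up and down. That setting cannot check the scaling where so many genes differ. Alternatives were RLE factors, library totals, no filter, DESeq2 1.42.0, a replicate block, only the groups compared, each library left out and, added after seeing the data, no mitochondrially encoded genes. The genes and lists were chosen with earlier results of these data known. Values per library are given for genes called in any comparison with an absolute log2 fold change of at least 1, for the kinases, phosphatase subunits and Atf4, and for others chosen after their values were seen (Cebpg, Fgf21, Phgdh, Psat1 and Aldh1l2). Of each wider list, up to 4 genes with the smallest adjusted p are named. Promoter stretches are RefSeq's, from GRCm38.p6.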

Additional observations from a re-analysis of the deposited data

How the results depend on the processing

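Of 1287 log2 fold changes of the 33 genes recomputed under the alternatives, 1188 kept their direction and side of the threshold, 35 lost a call, 33 gained one and 31 changed sign, none of these a call in the reported fit. The counts of called genes, over all genes tested and over the 33, stayed within 1.5 times the reported ones under these alternatives; several counts of the wider lists did not, as given beside them for library totals. Over the fits without 1 library, the genes called higher in the knockout numbered 12 to 16 and those called lower 12 to 15. In rescue against knockout they were 14 to 17 and 6 to 7, and in rescue against empty vector 12 to 15 and 8 to 9. Library totals alone turned the sign in the knockout of Asns (-0.074), Shmt2 (-0.056), Gdf15 (-0.061) and Gpt2 (-0.051). It did so in rescue against knockout for Ddit4 (0.17), Shmt2 (0.025), Cebpb (0.14) and Gdf15 (0.11), and in rescue against empty vector for Trib3 (0.01). The cause was not tested. Ddit4 also turned without a filter (0.027). With only the groups compared, Sesn2 turned in rescue against knockout (-0.002) and Trib3 in rescue against empty vector (0.001). Leaving out 1 library gave a range across 0 in the knockout for Asns (-0.007 to 0.21) and Gdf15 (-0.03 to 0.22), and in rescue against knockout for Ddit4 (-0.066 to 0.075) and Cebpb (-0.14 to 0.02). In rescue against empty vector the same held for Trib3 (-0.11 to 0.14), Shmt2 (-0.11 to 0.039), Sesn2 (-0.063 to 0.017), Eif2ak1 (-0.08 to 0.032), Psph (-0.025 to 0.10), Fgf21 (-0.049 to 0.18) and Gdf15 (-0.10 to 0.16). With a replicate block, 12 of the 33 rose and 13 fell in the knockout, 15 and 7 in rescue against it, and 13 and 9 in rescue against empty vector, where only the call of Eif2ak4 was lost (adjusted p = 0.058). The replicate numbers did not pair libraries: deviations of same-numbered libraries correlated between -0.15 and 0.045, and 0 of the 9 libraries matched its own number best. Without the mitochondrially encoded genes, 8066, 7553 and 6336 genes were called, beside 8078, 7567 and 6330. Genes near 1 CPM and below are limited by depth, as are Ndufa4l2 and Stc2.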
